A study of Mus musculus with 2 samples.

Results

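Clec9a and Wdfy4 dendritic cells were taken from Xenium data of whole mouse skin, in which single RNA molecules are read in place and assigned to cells. A cell was chosen by its own counts: at least 10 transcripts with a quality score of at least 20, Clec9a plus Wdfy4 of at least 2, no C1qa, no Kit, and fewer than 2 counts of Cd3d, Cd3e and Cd3g together. This rule found 345 cells of 83742, 177 of 37513 in the WT section and 168 of 46229 in the Utx-cKO section. They are called members below.

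The study compared 1 section of skin from a WT control with 1 section of Utx-cKO skin, both from females of the B6/129 strain under normal development. In Utx-cKO skin, Kdm6a, the gene of the histone demethylase Utx, was deleted in keratin-14 expressing tissues with Krt14-Cre. Krt14 drives expression in basal keratinocytes and not in blood-derived cells. No source used here gives the age or the number of animals. The 5 µm sections came from fixed, paraffin-embedded blocks. With 1 section per group there is no replicate check and no test: intervals are exact 95% intervals that cover counting error only, and cells of a section are not replicates.

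Conventional dendritic cells take up antigen in tissues and present it to T cells. The branch marked by Clec9a, a receptor for actin exposed on dead cells, is known for cross-presentation, in which peptides of engulfed material are loaded on MHC class I. Wdfy4 is a protein required for cross-presentation of cell-associated antigen. In skin these cells lie mostly in the dermis and carry antigen to lymph nodes after maturation.

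The panel of 480 genes held few other genes to check the name against. Of the genes listed for this branch, Clec9a, Wdfy4 and Id2 were measured, so Id2, a transcription regulator needed for its development, was the check that the rule had not used. All levels are CPM: counts of a set of cells scaled so that the 473 genes that the rule did not use sum to 1000000. Id2 stood at 7705 CPM in WT members against 1773 in all other WT cells, and at 9557 against 2311 in Utx-cKO. It was 4.34-fold higher in WT members (log2 2.12, 1.82 to 2.41) and 4.14-fold in Utx-cKO members (log2 2.05, 1.72 to 2.36). Over macrophages its log2 ratios were 2.48 and 2.23, and over T cells 0.83 and 0.86. MHC class II genes, Itgax, Flt3 and Zbtb46, which mark dendritic cells as a whole, were not among the 480 genes measured, so the name rests on 3 genes, 2 of them in the rule.

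Depth differed between the sections. Transcripts of sufficient score numbered 3540184 in WT, 74.7% of them in cells, and 2875112 in Utx-cKO, 84.9% of them in cells. WT members held a median of 64 transcripts (10 to 411) and Utx-cKO members 42 (10 to 299), against 50 and 33 in other cells that were not keratinocytes. Member cell areas were alike at medians of 119 and 120 µm2, while member nuclei measured 25.4 and 23.9 µm2 against 18.6 and 19.1 µm2 in those other cells. Only 2 cell identifiers occurred in both sections.

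The rule's own counts are a description of the choice. Both genes were found in 84 WT and 83 Utx-cKO members, Clec9a without Wdfy4 in 9 and 15, and Wdfy4 without Clec9a in 84 and 70. The sum of both genes was exactly 2, the lowest allowed, in 102 and 100 members and reached 13 and 9. A further 860 and 1094 cells had a sum of 1 and met the other limits. Of cells with a sum of at least 2, 81 WT and 66 Utx-cKO cells were left out: 58 and 32 held C1qa, a complement gene of macrophages, 22 and 37 held Kit, a receptor of mast cells and melanocytes, and 3 and 3 held Cd3 genes. Members held 28.6% and 23.6% of the Clec9a counts in cells. As a background, 0.698% of WT and 0.910% of Utx-cKO keratinocytes, which should lack Clec9a, had a count of it at median depths of 64 and 50 transcripts, and 0.890% and 1.13% had a count of Wdfy4.

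Levels of some genes outside the rule stepped up across that threshold. Alox5ap, which encodes the partner protein of 5-lipoxygenase in leukotriene synthesis, stood at 1300 CPM in WT cells with neither gene, 6766 in cells with a sum of 1, 16916 in members with a sum of 2 and 23801 in members with 3 or more. In Utx-cKO the same steps were 1336, 4918, 15443 and 29890. Id2 stepped up in the same order, from 1648 through 2716 and 4294 to 12656 in WT and from 2186 through 3150 and 6464 to 15277 in Utx-cKO. For Alox5ap and Id2, members just inside the threshold therefore lay between the cells just outside it and the members with more counts. A clear step at the threshold itself was not seen for every gene in both sections. Tspan33, a tetraspanin, was at 512 CPM in WT cells with a sum of 1 and 520 in members with a sum of 2. In Utx-cKO it went from 354 to 1616.

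Members made up 0.472% of WT cells (0.405 to 0.546) and 0.363% of Utx-cKO cells (0.311 to 0.423). The log2 ratio, Utx-cKO over WT, was -0.38 (-0.69 to -0.06). Of cells that were not keratinocytes, members were 0.773% and 0.600%, and per cell area they were 46.9 and 37.2 per mm2. Thinning to 30 transcripts left out shallower cells and kept 28642 of 37513 WT and 29711 of 46229 Utx-cKO cells. The lower share did not hold at this matched depth: 70 WT and 76 Utx-cKO cells met the rule, a log2 ratio of 0.07 (-0.42 to 0.56). It also did not hold without WT strip 1, where the log2 ratio was 0.03.

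Each section held 4 separate strips of tissue, connected areas of at least 1000 cells. No source used here says whether strips are animals or pieces of 1 animal. In WT, members were 0.773%, 0.556%, 0.313% and 0.261% of the cells of strips 1 to 4. In Utx-cKO they were 0.408%, 0.626%, 0.330% and 0.114%. The strips of the sections overlapped, and WT strip 1 alone held 81 of the 177 WT members while Utx-cKO strip 4 held 11.

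**Figure D1:**
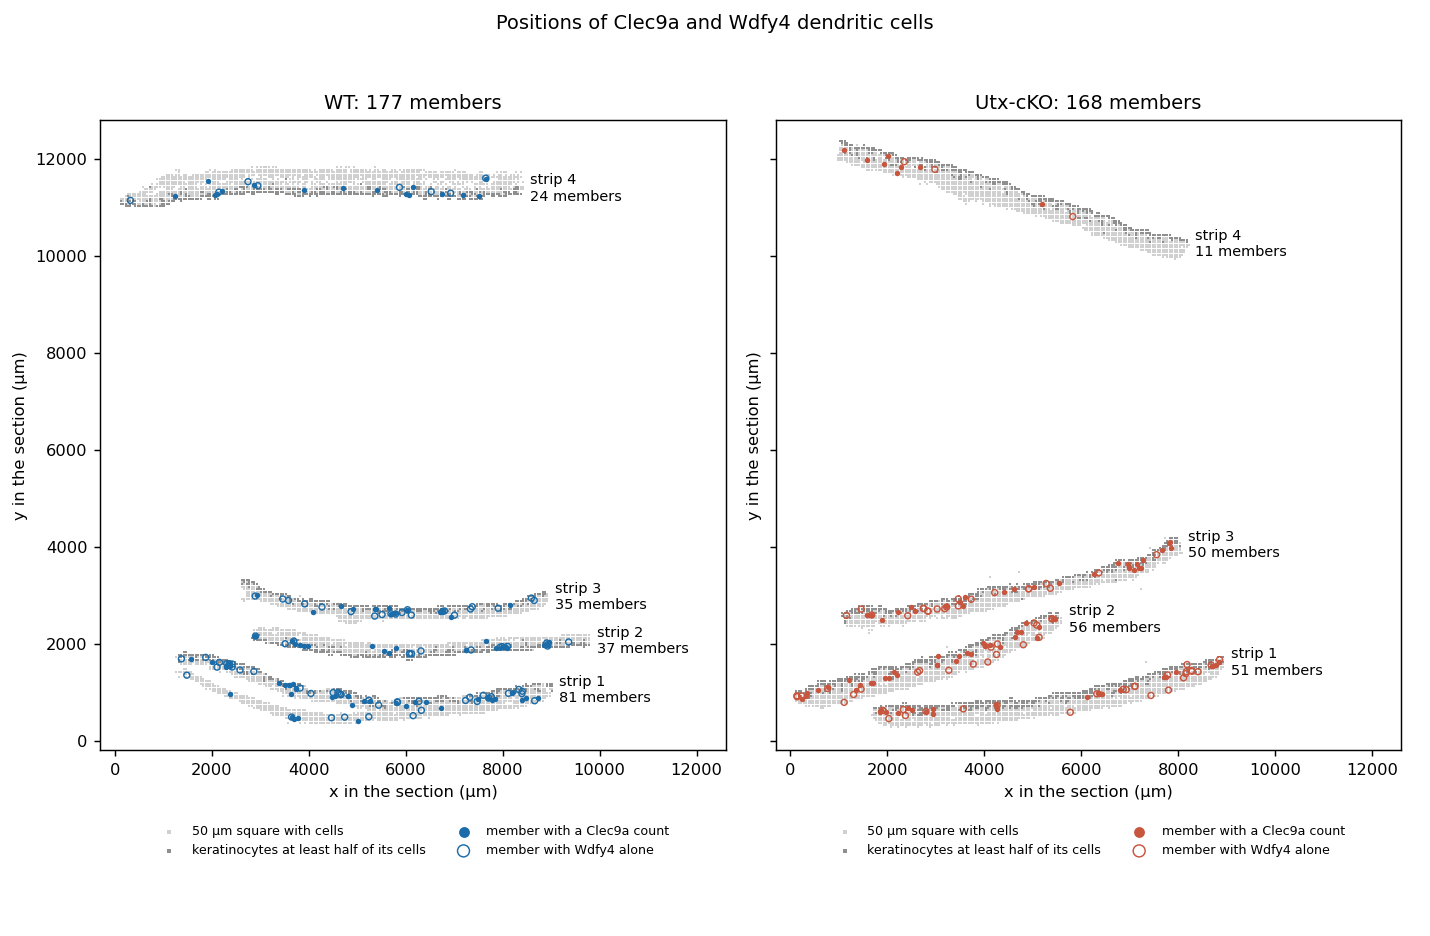
Positions of the members (coloured points, filled with a Clec9a count and open with Wdfy4 alone) over 50 µm squares that hold cells (light grey) or mostly keratinocytes (dark grey), in µm, for the WT and Utx-cKO sections. Members lie along all 8 strips, from 81 in WT strip 1 to 11 in Utx-cKO strip 4.

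Compared with all other cells, members were higher for Alox5ap, the DNA sensor gene Aim2 and all 5 measured genes of the cell cycle list. A gene was counted as higher when it was at least 2-fold above other cells in both sections with at least 30 counts in members. Of 169 genes with enough counts, 31 (18.3%) were higher, and of 189 genes expected to reach 30 counts at the other cells' level, 41 (21.7%) were at least 2-fold lower. Of the 31, 22 were higher than in other cells of the same strip in each of the 8 strips, and the fewest was 6. The 31 were chosen on the pooled counts of these strips, so this is a description and partly restates the choice. The median over the genes tested was a log2 ratio of 0.24 in WT and 0.19 in Utx-cKO.

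The highest ratios belonged to Gpr35, Tspan33 and Alox5ap. Gpr35, a G protein-coupled receptor of leukocytes, reached 1310 CPM in WT members against 136 in other cells and 2214 against 149 in Utx-cKO, on 17 and 19 counts. That was 9.64-fold (log2 3.27, 2.47 to 3.97) and 14.8-fold (log2 3.89, 3.14 to 4.56). Tspan33, a tetraspanin of the cell surface, reached 1233 against 151 and 2098 against 177, on 16 and 18 counts (log2 3.03 and 3.57). These genes were sparse: 9.60% of WT and 9.52% of Utx-cKO members had a Gpr35 count, against 0.921% and 0.762% of other cells.

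Alox5ap was the most frequent of the 3. It reached 19724 CPM in WT members and 20513 in Utx-cKO members against 2432 and 2207 in other cells, and 63.3% and 55.4% of members had a count. Its log2 ratios were 3.02 (2.83 to 3.20) and 3.22 (2.99 to 3.43). Alox5ap is shared with macrophages, where it stood at 10711 and 14922 CPM (log2 0.88 and 0.46 of members over macrophages). In strips it ran from 14820 to 23382 CPM in WT members and from 14925 to 25269 in Utx-cKO members, above other cells of the strip in all 8.

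Aim2, the cytosolic DNA sensor that starts an inflammasome, reached 4084 CPM in WT members against 699 in other cells, and 3497 against 752 in Utx-cKO. Its log2 ratios were 2.55 (2.12 to 2.94) and 2.22 (1.65 to 2.74). Of the 4 genes of innate sensing and inflammatory cytokines on the panel, Aim2 was higher among the 2 with enough counts. Dhrs9, a retinol dehydrogenase, and Rara, a retinoic acid receptor, were also higher: Dhrs9 by log2 2.46 and 2.00 on 21 and 10 counts, and Rara by log2 1.58 and 1.48 on 78 and 49 counts.

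The cell cycle list was higher over each section as a whole, with 5 of 5 measured genes past 2-fold against 18.3% of all genes tested. Mki67, the proliferation marker, reached 5702 CPM in WT members against 1075 in other cells and 5128 against 1131 in Utx-cKO (log2 2.41 and 2.18). Top2a, which untangles DNA, was higher by log2 1.88 and 1.89, Cdk1, the kinase of mitotic entry, by 2.00 and 2.03, and Birc5, a protein of the dividing spindle, by 2.18 and 2.11. Ccnd1, cyclin D1 of early G1, reached 5856 against 1583 and 7809 against 1620 CPM (log2 1.89 and 2.27). The counts of the mitotic genes lay in few cells: the 5 highest members held 45.9% of WT and 38.6% of Utx-cKO Mki67 counts. They also differed by strip. In WT strips 2 and 3, Birc5 had 0 and 2 counts, Cdk1 0 and 3, and Top2a 1 and 4. Top2a there stood at 861 and 962 CPM against 853 and 1286 in other cells. Mki67 and Ccnd1 were higher than in other cells of the strip in all 8 strips.

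In shares of cells, 40 of 177 WT members (22.6%) and 40 of 168 Utx-cKO members (23.8%) had a count of Mki67, Top2a, Cdk1 or Birc5. Thinned to 30 transcripts, which left out 36 and 46 shallower members, the shares were 19.9% (13.6 to 27.4) and 23.8% (16.5 to 32.3). Other cells that were not keratinocytes had 5.70% and 6.08% at the same depth, macrophages 4.88% and 6.91%, keratinocytes 7.39% and 8.40%, and T cells 11.4% and 13.1%. The members' intervals overlapped those of T cells in both sections (8.78 to 14.4 and 9.48 to 17.6) and lay above the other shares. A count of a cycling gene is not a call of the cycle phase.

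Some genes of peptide loading on MHC class I were higher. Tap1, a subunit of the peptide transporter, reached 10170 CPM in WT members against 3562 in other cells and 11305 against 4067 in Utx-cKO (log2 1.51 and 1.47). Psmb8, an immunoproteasome subunit, was higher by log2 1.51 and 1.86, Tapbp, the tapasin that bridges transporter and class I, by 1.05 and 1.22, and H2-D1, a class I heavy chain, by 1.12 and 1.08. H2-K1, the other class I heavy chain, was 1.55-fold and 1.33-fold above other cells (log2 0.63 and 0.41), short of 2-fold. On a list of 9 genes of this pathway, put together after their values were seen, 4 of 9 passed 2-fold, with a median log2 ratio of 0.97 and 0.94. On the antigen presentation list, 2 of the 3 genes with enough counts passed. H2-D1 stood at 19416 and 18182 CPM in members and 21049 and 24899 in macrophages, and H2-K1 at 36444 and 34965 in members and 41848 and 54553 in macrophages. Both class I chains were thus at or below the macrophage level.

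Tyrobp, Cd68 and Fcer1g, genes shared by myeloid cells, were higher than in other cells and lower than in macrophages. Tyrobp, a signalling adaptor of myeloid receptors, reached 4700 and 4779 CPM in members, 1491 and 1099 in other cells, and 8676 and 8285 in macrophages. Cd68, a lysosomal protein, reached 2620 and 3846 in members and 8356 and 11455 in macrophages. Fcer1g, a subunit of Fc receptors, reached 7242 and 3963 in members and 12088 and 15489 in macrophages. The rule bars C1qa from members, and macrophages were chosen by C1qa with C5ar1 and Stab1. The part of these choices in the lower levels of macrophage genes was not tested. Vim, an intermediate filament of mobile and connective tissue cells, was the most abundant of the 31 at 75584 and 75175 CPM (log2 1.20 and 1.61 over other cells), and it was above macrophages too (log2 0.46 and 0.73). The macrophage list as a whole, 5 genes without C1qa, summed to 6549 and 9557 CPM in members against 9195 and 7090 in other cells, with Stab1 at 2 and 5 counts. Cxcr4, the receptor of Cxcl12, was higher by log2 1.61 and 1.64 on 21 and 11 counts. With at least 2 Clec9a counts required, the lower of its log2 ratios was 0.31, and 13 genes in place of 31 were higher.

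Members were also set against macrophages and T cells by themselves. Of the 169 genes, 38 (22.5%) were at least 2-fold above macrophages in both sections and 30 (17.8%) above T cells. Of the 31 genes, 13 were also above macrophages, 16 above T cells and 5 above both: Gpr35, Tspan33, Dhrs9, Ccnd1 and Birc5. Macrophages were cells with C1qa and at least 2 counts of C1qa, C5ar1 and Stab1, T cells those with at least 2 Cd3 counts, and keratinocytes those with at least 3 counts and 10% of counts from keratinocyte markers. Members were left out of each of these sets. The rule bars C1qa from members but allows 1 Cd3 count, which 5 WT and 7 Utx-cKO members held. A T cell could also meet the keratinocyte limits. There were 586 and 351 T cells, of which 230 and 196 lay outside the keratinocyte class. The comparison with T cells, the shares of cycling T cells and the shares of cells near a T cell used the full set. Keratinocyte RNA is therefore part of it.

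**Figure D2:**
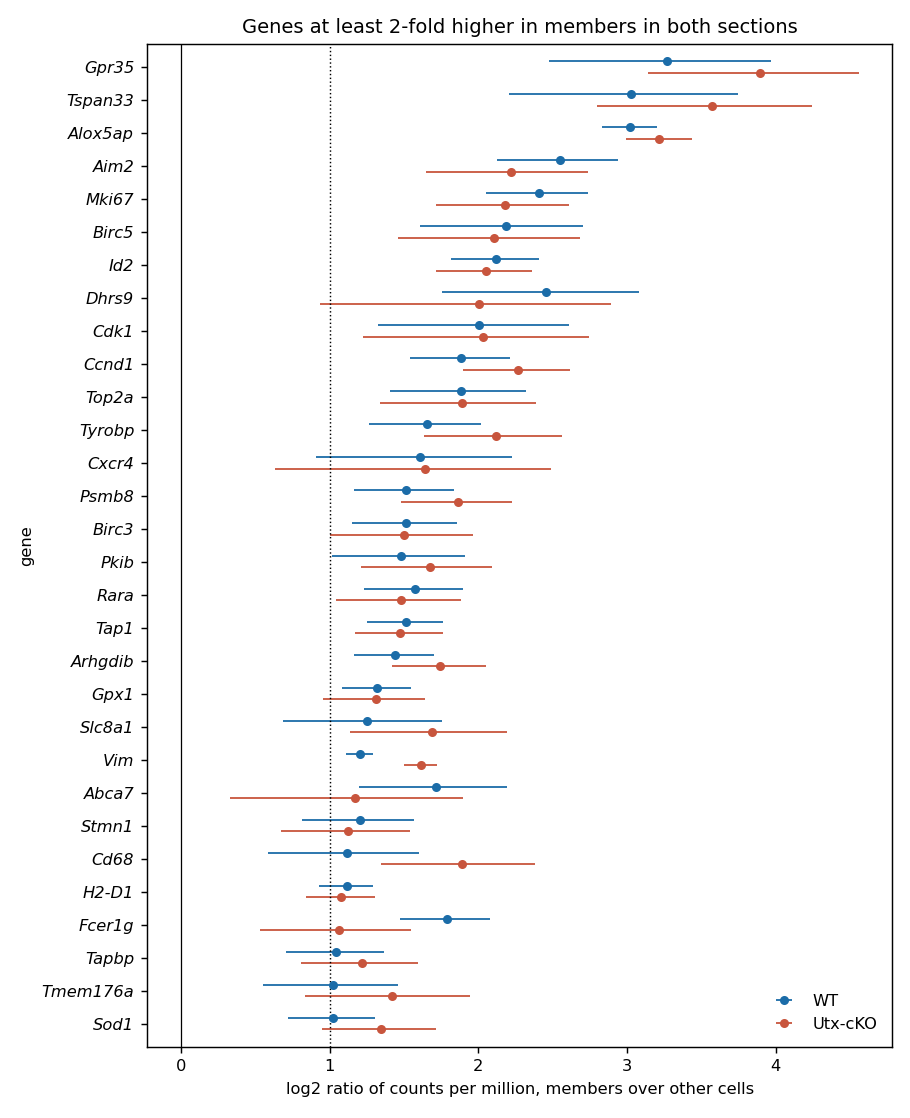
Log2 ratio of CPM in members over all other cells for 30 of the 31 genes at least 2-fold higher in both sections, WT in blue and Utx-cKO in red, with exact 95% counting intervals; the dotted line marks 2-fold. Gpr35, Tspan33 and Alox5ap lie at log2 3.02 or above in both sections, and the sections' intervals overlap for all but Vim.

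Any count of Gpr35, Tspan33, Alox5ap, Aim2 or Id2, the 5 highest genes that are not on the cell cycle list, was seen in 75.1% of WT and 75.6% of Utx-cKO members. At 30 transcripts a cell, the shares were 65.2% (56.8 to 73.1) and 66.4% (57.3 to 74.7). Macrophages had 32.4% and 42.8% at that depth, T cells 17.2% and 20.4%, keratinocytes 8.56% and 10.7%, and other cells that were not keratinocytes 16.8% and 17.7%. These genes were chosen for their ratio, so the members' shares are a description and restate it.

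Most genes of other dendritic cell types had few counts. The type 2 list summed to 3082 CPM in WT members against 1466 in other cells and 1632 against 1047 in Utx-cKO, and the mature list to 5162 against 2770 and 5128 against 3073. Irf4, a transcription factor of type 2 dendritic cells, reached 3005 CPM in WT members against 1407 in other cells, and 1399 against 971 in Utx-cKO. Ccl17 was at 1 and 2 counts. Of the 6 genes of mature, migrating dendritic cells on the panel, Ccl19 alone reached 30 counts over both sections, at log2 1.25 (0.70 to 1.75) over other cells in WT and 0.32 (-0.74 to 1.20) in Utx-cKO. Ccr7, the receptor that guides mature cells to lymph nodes, was at 2 and 1 counts, Ccl22 at 9 and 8, Fscn1 at 13 and 11, Cd274 at 9 and 5, and Il4i1 at 2 and 9. Cd83, a maturation marker, was at 14 and 5 counts and Cd1d1, which presents lipids, at 6 and 2. Ccl22 counts were concentrated, with 88.9% and 87.5% of them in the 5 highest members. Epcam, an adhesion molecule of Langerhans cells that keratinocytes also make, was below other cells (log2 -1.19 and -0.88). The plasmacytoid genes Klk1 and Ly6d were at 1 and 1, and at 1 and 0 counts.

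Genes of other skin cells were mostly lower in members, but not absent. Of 12 keratinocyte genes expected to reach 30 counts, 10 were at least 2-fold lower in members, and the summed level of the list was 31590 and 39977 CPM against 125676 and 133817 in other cells. A keratinocyte marker count was still found in 39.0% of WT and 37.5% of Utx-cKO members, and 8 and 16 members met the share by which keratinocytes were named. Stab1, a macrophage scavenger receptor, and the endothelial genes Cdh5 and Aqp1 were lower. Of 6 fibroblast genes with enough counts none was higher, and the B cell gene on the panel was at 0 and 3 counts. The nearest cell centre lay at a median of 8.91 and 8.79 µm from a member, and the part of neighbouring cells in these counts was not tested. With only the 108 and 105 members that had no keratinocyte marker count, 28 genes were higher than in other cells.

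Utx-cKO and WT members differed in some genes at this depth, on few counts. Of 169 genes with at least 30 counts, 26 (15.4%) were at least 1.5-fold higher in Utx-cKO members and 25 (14.8%) lower. For 8 of the higher and 14 of the lower genes the counting interval excluded 0, and the median log2 ratio of the genes tested was -0.01. The main genes of the set did not pass: Alox5ap was at log2 0.06 (-0.23 to 0.34), Id2 at 0.31 (-0.13 to 0.75), Aim2 at -0.22 (-0.92 to 0.45), Mki67 at -0.15 (-0.73 to 0.40) and Tap1 at 0.15 (-0.24 to 0.54). No gene of the cell cycle, antigen presentation or MHC class I lists passed in either direction.

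Kdm6a itself was measured in members at 3159 CPM in WT and 3030 in Utx-cKO, on 41 and 26 counts, a log2 ratio of -0.06 (-0.83 to 0.68). In keratinocytes, where the Cre acts, it was at 2830 and 2397 CPM (log2 -0.24, -0.31 to -0.17), and in macrophages at 2561 and 2557. No source used here says where the probes lie relative to the deleted part, so these levels do not check the deletion.

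Among genes lower in Utx-cKO members, Kmt2a, a histone H3 lysine 4 methyltransferase, went from 2388 to 699 CPM on 31 and 6 counts (log2 -1.77, -3.32 to -0.49). All WT strips (1411 to 3203 CPM) lay above all Utx-cKO strips (0 to 1390), narrowly and on few counts. WT strip 4 had 2 counts and Utx-cKO strip 3 had 5, and Utx-cKO strips 2 and 4 had 0. In other cells the Kmt2a log2 ratio was -0.13. Klf4, a transcription factor of barrier epithelium and myeloid cells, showed the same separation of strips at log2 -0.87 (58 and 21 counts), against -0.43 in other cells, and was chosen for naming after its values were seen. Among genes past the limit against other cells or between the sections, strips were apart for 2 lower genes and 1 higher gene, Sprr2a1. The genes looked at were 31 higher and 41 lower than other cells, and 26 higher and 25 lower between the sections, some in both. How many would lie apart by chance was not tested. Irf4 was at log2 -1.10 (39 and 12 counts) and -0.54 in other cells, and 28 of its 39 WT counts came from strip 1. Ccl19, a ligand of Ccr7, was at log2 -1.08 (32 and 10 counts), with its interval reaching -0.02.

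Of the 8 genes higher in Utx-cKO members with an interval above 0, Ctsz, a lysosomal cathepsin, had the most counts. It went from 5008 to 9091 CPM on 65 and 78 counts (log2 0.86, 0.37 to 1.36), against log2 -0.20 in other cells and 0.31 in macrophages. The strips overlapped, at 2823 to 10327 in WT and 6670 to 12626 in Utx-cKO. Cers2, a ceramide synthase, went from 1695 to 4079 on 22 and 35 counts (log2 1.27, 0.46 to 2.11). Slc3a2, the heavy chain of amino acid transporters, went from 2774 to 4545 on 36 and 39 counts (log2 0.71, 0.02 to 1.41). Sprr2a1, a cornified envelope gene of keratinocytes, was at log2 1.10 in members, 1.05 in other cells and 1.20 in keratinocytes. Its ratio in members was thus close to that of the rest of the section. The strips of the sections did not overlap, at 1411 to 2166 CPM in WT members and 2340 to 12793 in Utx-cKO members.

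The other named genes of this comparison turned sign under at least 1 other setting. Akr1c18, a hydroxysteroid dehydrogenase, went from 14 to 62 counts (log2 2.74), with 69.4% of the Utx-cKO counts in 5 members, and was at log2 1.56 in other cells. Krt15, Krt5 and Krt17, keratins of basal and follicle cells, were at log2 1.60, 0.95 and 0.71, and 4 of 7 keratinocyte genes were higher against 15.4% of all genes. The share of members with a keratinocyte marker count was 39.0% in WT and 37.5% in Utx-cKO, and 25.4% and 33.3% lay within 15 µm of a keratinocyte. The part of keratinocyte RNA in these ratios was not tested. Without members holding a keratinocyte marker count, 8 genes were higher and 14 lower in place of 26 and 25. Sparcl1, Elovl5, Tmem45a, Ly6g6c and Cers5 were lower, with log2 ratios from -1.84 to -1.11. For Elovl5, a fatty acid elongase, 71.3% of the 181 WT counts lay in 5 members. Counted per member cell in place of per 1000000, the median gene moved to log2 -0.53, with 3 genes higher and 78 lower, where Utx-cKO members held a median of 42 transcripts against 64.

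**Figure D3:**
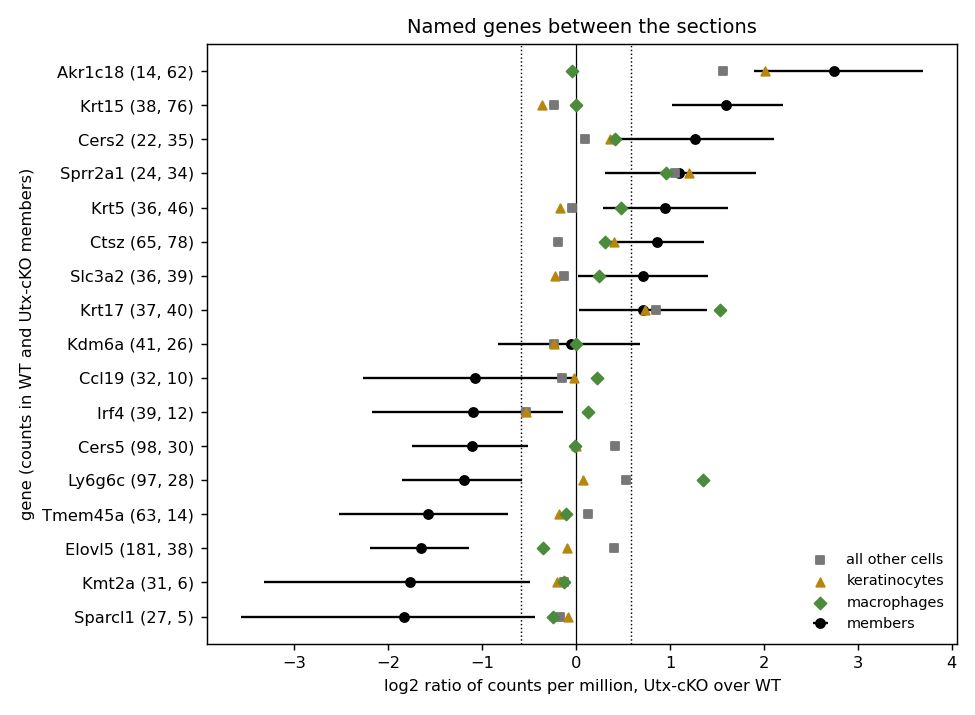
Log2 ratio of CPM, Utx-cKO over WT, of the 16 named genes and Kdm6a in members (black, with exact 95% counting intervals), all other cells (squares), keratinocytes (triangles) and macrophages (diamonds); dotted lines mark 1.5-fold, and counts in WT and Utx-cKO members stand behind each gene. Members stand away from the other cells for Kmt2a, Ctsz and Krt15, and with them for Sprr2a1 and Krt17.

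Members with a Clec9a count and members with Wdfy4 alone were set side by side, since 93 WT and 98 Utx-cKO members held Clec9a and 84 and 70 did not. Of 169 genes, 4 (2.37%) were at least 2-fold higher in the Clec9a members in both sections and 12 (7.1%) at least 2-fold lower. Id2 was higher, on 66 against 34 counts in WT (log2 1.24, 0.63 to 1.89) and 56 against 26 in Utx-cKO (log2 1.03, 0.34 to 1.76). Dhrs9 was higher on 16 against 5 and 9 against 1 counts, with a pooled log2 ratio of 2.20 (0.88 to 3.78). The other higher genes were Htra1, a secreted protease, and Krt77, a keratin (pooled log2 1.54 and 2.14).

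Alox5ap was higher in the Clec9a members but short of 2-fold, at a pooled log2 ratio of 0.44 (0.16 to 0.72). Gpr35 was at 0.63 (-0.40 to 1.69), an interval too wide to tell whether the 2 kinds of member differ. Tap1 was at 0.88 (0.48 to 1.28) and Aim2 at 0.89 (0.22 to 1.58), past 2-fold in WT (log2 1.14 and 1.25) but not in Utx-cKO (0.50 and 0.31). Mki67 went opposite ways, at log2 0.92 in WT and -1.03 in Utx-cKO. Genes with more counts in the Wdfy4-alone members were Tmem176a, a membrane protein of myeloid cells (16 against 55 counts, pooled log2 -1.64), and, short of 2-fold in WT, Fn1, fibronectin (73 against 179 counts, -1.15), and Irf4 (15 against 36, -1.12). Tyrobp was at -0.73 (-1.36 to -0.12).

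The 12 lower genes included 4 fatty acid elongases. Elovl7, Elovl5, Elovl4 and Elovl6, which sebaceous glands use, were at pooled log2 -3.92, -2.81, -2.74 and -2.60. In 7 WT and 7 Utx-cKO members at least 20% of counts came from a list of 15 sebaceous lipid genes, put together after the values were seen, and these held 65.4% and 71.0% of the members' lipid counts. Of the 7 in WT, 6 were Wdfy4-alone members, and in Utx-cKO 3 of 7 were. Among other cells 5.44% and 5.64% were as rich in these genes, against 3.95% and 4.17% of members. Without these 14 cells, 6 of the 12 genes were still at least 2-fold lower in both sections: Elovl7 at log2 -3.47 (-5.83 to -1.79), Elovl5 at -1.91 (-2.76 to -1.14), Tmem176a at -1.89, Cdsn, Tmem45a and Gpx4. The other 6 no longer passed. Of these, Elovl6 was at -1.61 (-3.24 to -0.20) and Elovl4 at -0.88 (-2.47 to 0.58), and Cyp1a1 and Fa2h rested on 6 counts each. Id2 was at 0.93 (0.47 to 1.41), no longer 2-fold in both sections. Irf4 and Fn1, short of 2-fold in WT with all members, were now at least 2-fold lower in both sections. Irf4 was at -1.37 (-2.34 to -0.46) and Fn1 at -1.40 (-1.81 to -0.998).

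**Figure D4:**
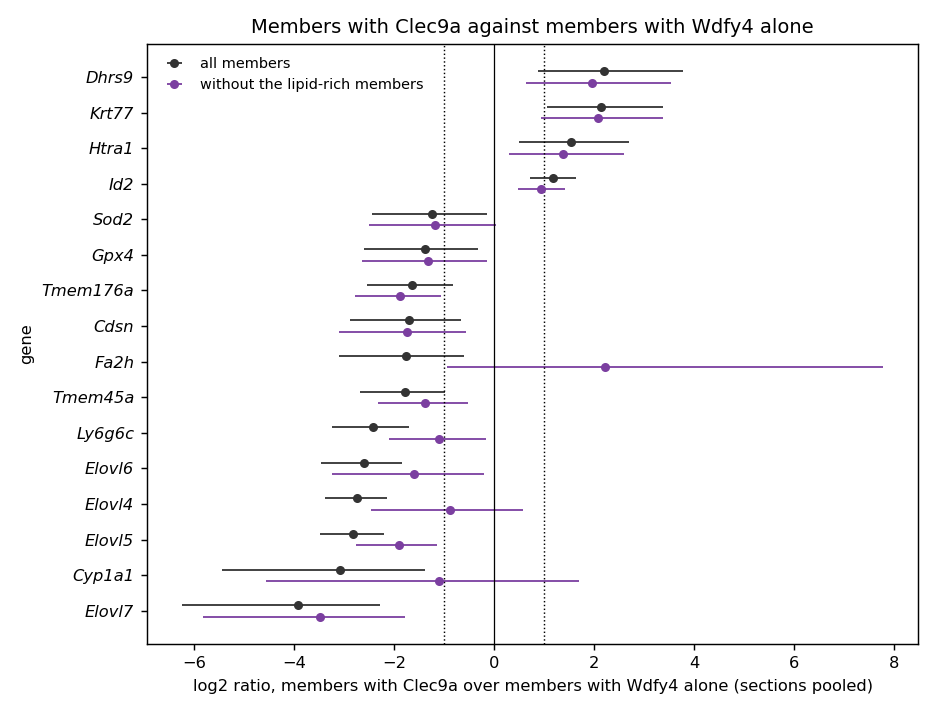
Log2 ratio of CPM in members with a Clec9a count over members with Wdfy4 alone, sections pooled, for the 16 genes at least 2-fold apart in both sections, with exact 95% counting intervals; black, all members, and purple, without the 14 lipid-rich members. Dhrs9, Krt77, Htra1 and Tmem176a keep their place without those cells, and Elovl4, Cyp1a1 and Fa2h move towards or past 0.

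Members lay near the epithelium. The median distance from a member to the nearest keratinocyte centre was 28.9 µm in WT (24.7 to 33.7) and 25.01 µm in Utx-cKO (19.3 to 28.4). Macrophages lay at 98.7 and 69.0 µm, T cells outside the keratinocyte class at 27.0 and 23.7 µm, and all other cells that were not keratinocytes at 39.7 and 35.9 µm. Within 15 µm of a keratinocyte were 25.4% and 33.3% of members, and beyond 100 µm were 12.99% and 6.55%, against 49.5% and 37.9% of macrophages. Clec9a members and Wdfy4-alone members were at 27.5 and 30.4 µm in WT and 23.6 and 25.2 µm in Utx-cKO, with intervals that overlapped. By strip the median ran from 18.2 to 36.5 µm in WT and from 16.2 to 35.2 µm in Utx-cKO. The 8 WT and 16 Utx-cKO members that met the keratinocyte share stayed among the members, while such cells were left out of the sets compared. Its part in these distances and in the neighbour shares below was not tested.

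Members also lay near T cells more often than other cells did. T cells as neighbours were the full set of 586 and 351, of which 230 and 196 lay outside the keratinocyte class. A T cell centre was within 30 µm of 58 of 177 WT members (32.8%, 25.9 to 40.2) and 38 of 168 Utx-cKO members (22.6%, 16.5 to 29.7). The shares were 12.1% and 9.27% of other cells that were neither keratinocytes, macrophages nor T cells, and 7.82% and 6.09% of macrophages. The T and NK cell list, 7 genes without the Cd3 genes, summed to 7782 and 6993 CPM in members and 6840 and 6694 in other cells. In WT strips the share of members was 34.6%, 29.7%, 14 of 35 and 20.8%, above the other cells of the strip in all 4. In Utx-cKO strips it was 45.1%, 14.3%, 10.0% and 18.2%, above them in 3, while in strip 3 other cells stood at 12.5%. Strip 1 carried the Utx-cKO share: without it 12.8% of members and 8.31% of other cells had a T cell within 30 µm.

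Other cells near the epithelium also had a T cell nearby more often than those far from it, so the share was also read at matched distances. Within 15 µm of a keratinocyte, 53.3% of WT members (37.9 to 68.3) and 26.5% of other cells had a T cell within 30 µm, and 30.4% (18.8 to 44.1) and 16.1% in Utx-cKO. From 15 to 50 µm the shares were 34.9% against 13.9% in WT and 20.7% against 11.2% in Utx-cKO. Beyond 50 µm they were 10.2% against 3.08% and 13.3% against 3.17%, on 5 and 4 members with a T cell. In every band of both sections the members' share was above that of other cells and of macrophages, and the members' interval lay above the other cells' share. The bands pooled the strips and were not read by strip. Members that met the keratinocyte share were kept in the bands, and other cells and macrophages that met it were not. Utx-cKO strip 1 held 23 of the 38 Utx-cKO members with a T cell within 30 µm.

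Members were near each other as well. Another member lay within 30 µm of 48 of 177 WT members (27.1%, 20.7 to 34.3) and 48 of 168 Utx-cKO members (28.6%, 21.9 to 36.0), against 6.06% and 5.72% of other cells. Within 15 µm of a keratinocyte the shares were 18 of 45 members against 8.40% of other cells in WT and 32.1% of members against 7.89% in Utx-cKO. The part of transcripts shared between adjoining cells in this was not tested. A macrophage lay within 30 µm of 49.7% and 40.5% of members, close to the 46.4% and 41.8% of other cells.

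**Figure D5:**
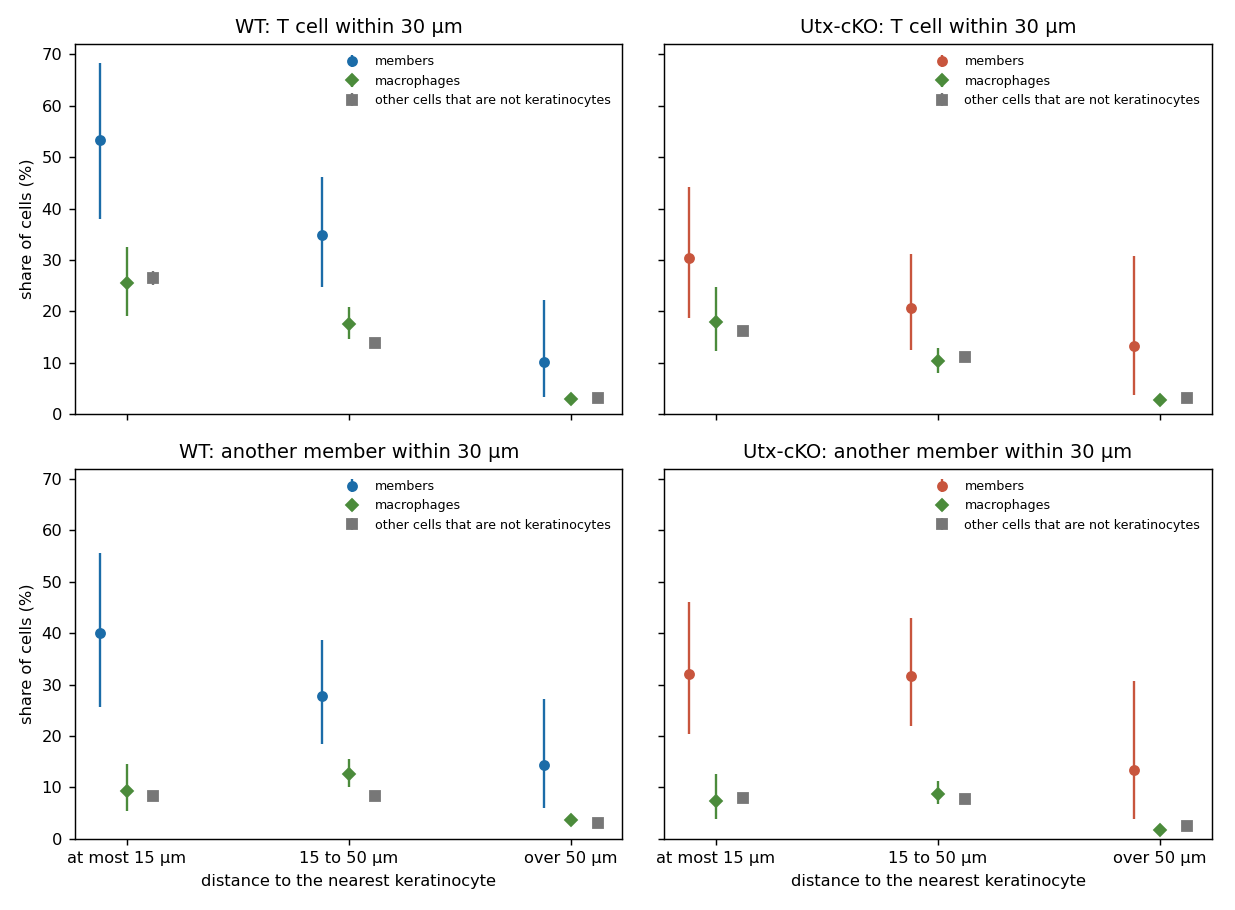
Share of cells, in percent, with a T cell (upper row) or another member (lower row) within 30 µm, by distance to the nearest keratinocyte, for members (circles), macrophages (diamonds) and other cells (squares) in WT and Utx-cKO, with exact 95% intervals. With strips pooled, members lie above the other cells in each band, at 53.3% against 26.5% for T cells nearest the epithelium in WT.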

How the data were processed

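RNA molecules of 480 genes were read in 1 WT and 1 Utx-cKO section of whole skin with a custom Xenium panel, per the labels' protocols. The deposited transcript tables give each molecule's position, cell and quality score, and the deposited cell tables give counts per cell, positions and areas. No source used here gives the instrument's software or segmentation version. Counts were rebuilt from molecules with a score of at least 20, without control probes, and equalled the authors' transcript counts in all 40371 and 52308 cells.

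The members and all gene lists were chosen with earlier results of these data known. The 7 genes of the rule were left out of totals and counts of genes. Levels (CPM) are counts summed over a set's cells and scaled so that the other 473 genes sum to 1000000. Ratios have exact conditional binomial intervals and shares Clopper-Pearson intervals, all 95%. Named genes were those of the dendritic cell and antigen presentation lists, the 15 highest over other cells, up to 8 in each direction between the sections with an interval excluding 0 and between Clec9a and Wdfy4-alone members, Kdm6a, and the leading genes of other lists; genes named beyond this rule were chosen after their values were seen. The rule for lower genes and lists of sebaceous lipid, MHC class I, myeloid and proliferation genes were added after values were seen. Ratios and intervals were tested on simulated data. Python 3.11.15, numpy 2.4.6, pandas 2.3.3 and scipy 1.17.1 were used. No column of another sample was present. No doublet caller was run. 1 gene is counted but not reported here. No sequence is printed.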

Additional observations from a re-analysis of the deposited data

How the results depend on the processing

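The share ratio (log2 -0.38) turned with cells thinned to 30 transcripts, to 0.066 under the rule and 0.12 with 1 count of Clec9a or Wdfy4 in place of 2, and without WT strip 1, to 0.033. The 31 genes higher than in other cells became 13 with Clec9a of at least 2 and 17 with a gene minimum of 100. Of the 15 highest, all stayed above 0 under every setting run and 12 above 2-fold; the exceptions were Tyrobp, Cxcr4 and Birc3.

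Genes at least 1.5-fold higher and lower in Utx-cKO members (26 and 25) became 7 and 12 over the nucleus alone, 8 and 8 with Clec9a plus Wdfy4 of at least 3, 7 and 13 with at least 1 count of each, 5 and 1 with Clec9a of at least 2, 61 and 57 at a gene minimum of 10, 2 and 7 at 100, 3 and 78 per member cell, and 8 and 14 without members holding a keratinocyte marker count, which for these counts was added after seeing the data. The higher genes alone became 11 at a score of at least 30 and 16 with Wdfy4 of at least 2, and the lower genes alone 15 without WT strip 3. Genes apart between Clec9a and Wdfy4-alone members (16) became 36 at a gene minimum of 10 and 5 at 100.

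Of 16 named genes between the sections, 7 kept their sign under every setting run (Kmt2a, Irf4, Ccl19, Ctsz, Cers2, Slc3a2 and Sprr2a1) and 9 did not; why was not tested. At a score of at least 30, Tmem45a was at log2 0.38 and Cers5 at 0.37. Over the nucleus alone, Sparcl1 was at 0.12 and Ly6g6c at 0.54. With Clec9a plus Wdfy4 of at least 3, Sparcl1 was at 0.077, Krt15 at -0.51, Krt5 at -0.51 and Krt17 at -0.77. With at least 1 count of each, Elovl5 was at 0.20, Ly6g6c at 2.44 and Cers5 at 0.44. With Clec9a of at least 2, Sparcl1 was at 1.04, Cers5 at 0.87, Krt5 at -0.28 and Krt17 at -0.96. Without members holding a keratinocyte marker count, Tmem45a was at 1.27 and Ly6g6c at 1.53, and with no cell centre within 10 µm, Tmem45a was at 0.82 and Akr1c18 at -0.18. Without WT strip 1, Krt17 was at -0.027, and without WT strip 3, Tmem45a was at 0.39, Ly6g6c at 0.46 and Cers5 at 0.19.

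The share of members with a T cell nearby was 44.0% in WT with Clec9a plus Wdfy4 of at least 3, 12.8% in Utx-cKO without strip 1 (added after seeing the data), 11.9% and 7.74% at a radius of 15 µm and 53.7% and 52.4% at 60 µm, where other cells had 3.45% and 2.71%, and 32.2% and 26.9%. The median distance to a keratinocyte stayed within its interval under each setting. No paired analysis was possible because each group is 1 section. With 1 section per group and 12979 and 8580 counts over all members, genes under 30 counts were not compared.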
